A study of Mus musculus with 18 samples.

Results

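The genes described here are 40 genes that carry a cell from G1 through S phase and mitosis, measured in mouse liver by sequencing of polyadenylated RNA. They were chosen by gene symbol from the table of 37303 genes, on condition that the estimate was marked OK in all 6 groups, and all 40 named genes met that condition. They comprise 4 G1 cyclins, 14 genes of S phase and 22 genes of mitosis.

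The livers came from 18 mice on the C57BL/6J background, 3 in each group: WT PBS, WT ASNase, Gcn2-/- PBS, Gcn2-/- ASNase, Atf4-/- PBS and Atf4-/- ASNase. Gcn2-/- and Atf4-/- mice carry a homozygous deletion of the gene in every tissue, so that non-hepatocytes of the liver lack it too. Mice received an intraperitoneal injection of L-asparaginase (ASNase, 3 IU per gram of body weight) or of phosphate buffered saline (PBS) on each of 8 days, and livers were taken 7.5 h after the last. The labels give the age as 8 to 16 wk, and the study's methods give a range that ends earlier. Both sexes were used, with 1 male of 3 in the WT PBS, Gcn2-/- PBS and Gcn2-/- ASNase groups and 2 of 3 in the WT ASNase, Atf4-/- PBS and Atf4-/- ASNase groups, and with 1 pooled value per group a part of sex cannot be told apart. ASNase is a leukemia drug that removes asparagine and some glutamine from the blood. GCN2, encoded by Eif2ak4, is the kinase that senses scarce amino acids, and ATF4 is the transcription factor made downstream of it.

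The table gives 1 FPKM for each gene and group (read fragments scaled by transcript length and by library depth), the authors' estimate over the 3 libraries, with a lower and an upper bound. There is no value per mouse, so no replicate test was possible and no p-value is given. The number of reads behind each value is not in the table. Where 6 values follow one another, they run from WT through Gcn2-/- to Atf4-/-, the PBS group of each strain before its ASNase group. A difference between groups is the difference of log2(FPKM + 0.1), which understates the change of low genes. It was called when FPKM was over 3 in either group, the difference was over 1.5 and the intervals of the groups did not overlap. The error printed with a difference combines the log2 widths of both intervals, measured from the centre of each.

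The gene-level FPKM of Eif2ak4 lay between 2.31 and 2.96 in the Gcn2-/- groups and between 2.19 and 3.14 elsewhere. Atf4 read 32.3 and 29.3 FPKM in the Atf4-/- groups and from 50.4 to 68.1 in the others. A deletion of some exons can leave reads from the others, and the table has no exon values, so these levels check neither genotype label. From read density plots the study reports that a Gcn2 exon is missing in Gcn2-/- mice and Atf4 in Atf4-/- mice. The liver label held: the 8 hepatocyte marker genes with an estimate in every group summed to 18836, 15968, 19960, 10670, 17697 and 8460 FPKM. These sums were lowest in the ASNase-treated knockouts. Summed FPKM of 12 skeletal muscle genes was 861, 1237, 5.97, 9.15, 69.4 and 156, high in WT livers of either treatment, and their part in the results below was not tested.

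The adult liver is a quiet tissue in which most hepatocytes rest outside the cycle and can re-enter it after injury or resection. D-type cyclins start that re-entry in G1 by loading CDK4 and CDK6. E2F factors then switch on the genes that license origins and copy DNA, while a later wave of genes for mitosis is held down in resting cells by the DREAM complex and switched on by B-MYB and FOXM1. Blood cells that pass through the liver, and its macrophages, can cycle as well.

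The S phase and mitosis members differ in the letters around their start sites. RefSeq promoter windows (GRCm38.p6, 250 bases before to 50 after the start) were matched for 30 of the 40 members. Those not matched were Ccnd1, Ccnd2, Ccne2, Gmnn, Mcm4, Ccna2, Aurkb, Foxm1, Kif20a and Tpx2. A member was counted once if any of its windows held a motif, and some, such as Prc1 and Mcm7, have more than 1 window. Shares over all windows are per window, so the units differ. The hexamer TTTGAA is the core of the cell cycle homology region that DREAM and B-MYB complexes recognise. It was found on either strand in 12 of 17 mitosis members (70.6%) and in 1 of 12 S phase members (8.33%, Mcm2). Of all 32851 windows, 17.9% held it. E2F motifs, searched as TTCCCGC, TTTGGCGC and TTTCGCGC on both strands, showed the opposite distribution. At least 1 was found in 7 of 12 S phase members (58.3%), 1 of 17 mitosis members (5.88%, Cdk1) and 5.33% of all windows. CCAAT was common to both, in 15 of 17 mitosis members (88.2%), 8 of 12 S phase members (66.7%) and 37.4% of all windows. These matches describe letters and do not show binding.

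The 150 bases before the start of a pair of mitosis genes and a pair of S phase genes are shown as examples of these motifs, Cdk1 being the mitosis member that holds an E2F motif besides the hexamer. Cdk1 encodes the kinase that drives entry into mitosis (chr10:69352913-69353062, minus strand), and Top2a the topoisomerase that untangles sister chromosomes (chr11:99024190-99024339, minus strand). Mcm6 (chr1:128359706-128359855, minus strand) and Mcm5 (chr8:75109359-75109508, plus strand) encode subunits of the helicase that opens replication origins. Capitals mark the homology hexamer, the CCAAT box or an E2F motif, in either orientation, and adjoining E2F motifs on opposite strands overlap in Mcm6.
Cdk1: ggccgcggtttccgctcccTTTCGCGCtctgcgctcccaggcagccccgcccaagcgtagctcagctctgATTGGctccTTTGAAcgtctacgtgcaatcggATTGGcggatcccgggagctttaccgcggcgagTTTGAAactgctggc
Top2a: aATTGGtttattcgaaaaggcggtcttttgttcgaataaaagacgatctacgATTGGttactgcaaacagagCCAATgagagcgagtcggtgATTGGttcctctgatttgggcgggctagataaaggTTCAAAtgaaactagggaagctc
Mcm6: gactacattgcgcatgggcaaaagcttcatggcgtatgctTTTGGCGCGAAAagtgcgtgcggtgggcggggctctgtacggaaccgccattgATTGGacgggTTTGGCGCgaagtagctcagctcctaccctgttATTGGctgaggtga
Mcm5: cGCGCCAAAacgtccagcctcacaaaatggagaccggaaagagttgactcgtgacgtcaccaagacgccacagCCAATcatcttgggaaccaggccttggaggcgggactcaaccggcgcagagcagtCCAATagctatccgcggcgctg
In Cdk1 the TTTGAA hexamers begin 71 and 15 bases before the start, each downstream of a CCAAT box on the opposite strand. In Top2a the reverse form begins 23 bases before the start, and a further match lies 179 bases before it, outside the stretch shown. Neither Mcm window holds TTTGAA.

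Across the 6 groups the mitosis members were at low levels and were lowest as a sum in ASNase-treated knockouts, whereas the sum of the S phase members varied less. In PBS livers the 22 mitosis members summed to 21.2 (WT), 17.9 (Gcn2-/-) and 10.2 FPKM (Atf4-/-), and with ASNase to 24.8, 8.04 and 6.31. The same sum over the 14 S phase members was 86.2, 88.5 and 74.4 with PBS, and 79.3, 63.4 and 68.4 with ASNase. Without Tk1, whose locus covers parts of another gene (a choice made after seeing the data), it was 57.3, 56.6 and 46.3 with PBS and 54.2, 56.6 and 64.4 with ASNase, so that the lower sum in the ASNase-treated knockouts rests on Tk1. The sum without Tk1 still holds Cdt1 and Mcm7, whose loci as quantified also reach past the annotated genes. Mcm7 was 18.6 FPKM in Atf4-/- ASNase livers, its highest value, and 4.85 at its lowest. The Atf4-/- PBS group stood below the WT PBS group without any ASNase. WT ASNase livers had the highest FPKM of 16 of the 22 mitosis members, a place they held for 11.5% of the 13444 genes with FPKM over 0 in every group and a mean over 0.3. Atf4-/- ASNase livers had the lowest FPKM of 15 of the 22, against 29.9% of those genes. The members were counted without the limit on the mean, which some of them, such as Cenpe, did not meet. In bulk liver, fewer cycling cells and less mRNA per cycling cell cannot be told apart.

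**Figure D1:**
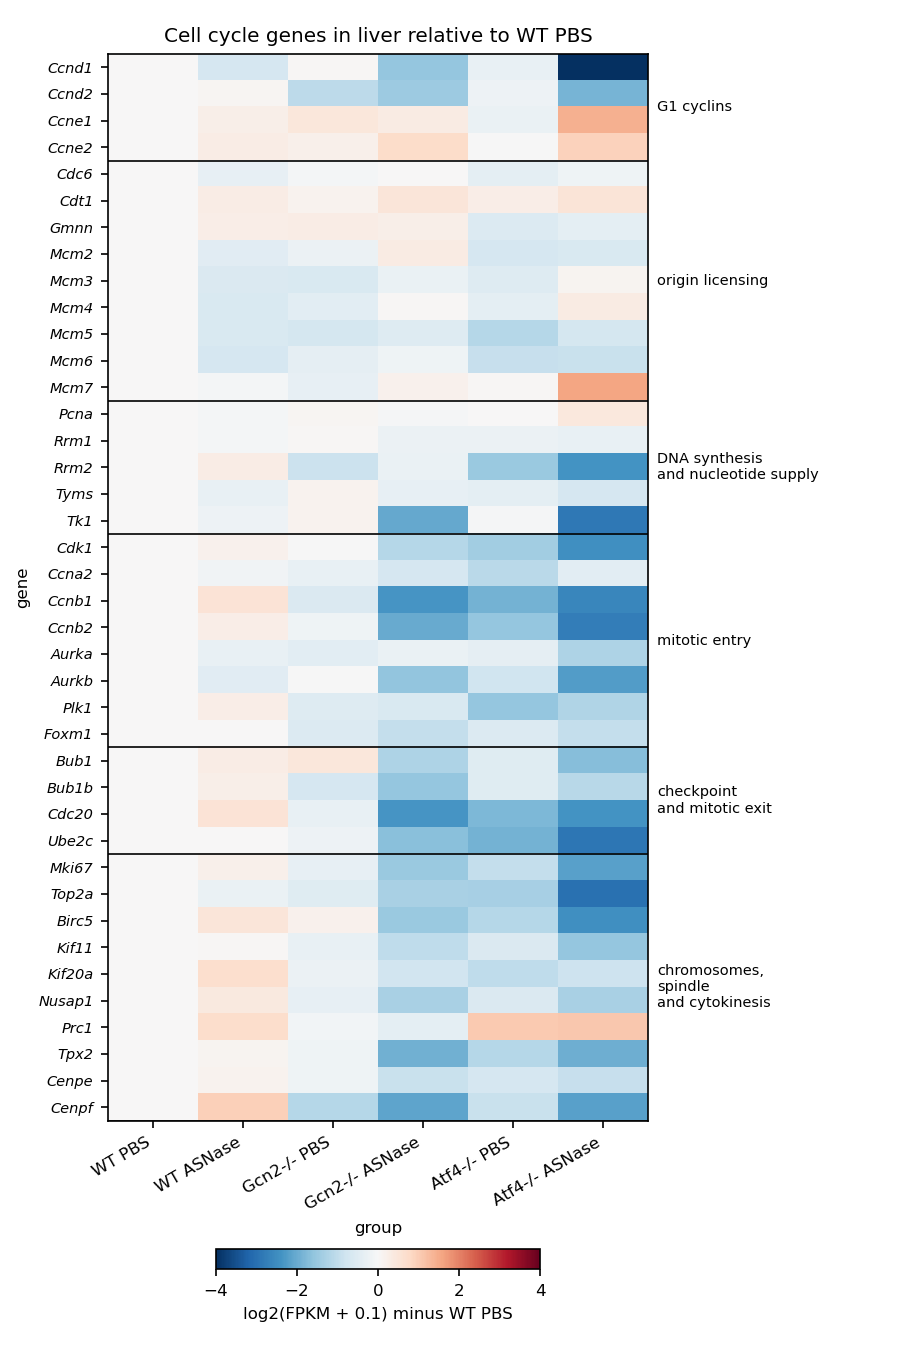
Each row is 1 of the 40 members and each column a group; the colour is log2(FPKM + 0.1) minus the same gene in WT PBS livers, blue for lower and red for higher. Most rows of mitosis genes are blue in the Gcn2-/- ASNase, Atf4-/- PBS and Atf4-/- ASNase columns, Prc1 being red in both Atf4-/- columns, and in these 3 columns the summed FPKM of mitosis genes was 8.04, 10.2 and 6.31 against 21.2 in WT PBS, while most rows of origin licensing are pale.

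These levels are close to the limit of the measurement. The lower bound of the interval was 0 for 92 of the 132 values of mitosis members and for 24 of the 84 values of S phase members. The median distance from an estimate to its bounds was 115% of the estimate for mitosis members and 61.9% for S phase members. Single mitosis genes were therefore rarely separated between groups, so they are described first as lists beside all genes, and the order of groups given for a single gene further on is an order of estimates. The sizes of the mitosis medians depend on the constant added before the logarithm. With 1 FPKM in place of 0.1 the median for Atf4-/- against WT livers under ASNase was −0.54 in place of −1.89, and with 0.01 it was −2.74. The number of members lower, 21 of 22, cannot change with this constant.

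In WT livers no member was called after ASNase, and most mitosis members had slightly higher estimates. None of the 8 members over 3 FPKM was called, where 0.76% of all genes tested were called higher and 0.121% lower, and none of the 40 was called when genes of any level were admitted (0.585% higher and 0.0805% lower). Of the 22 mitosis members, 18 were higher in ASNase than in PBS livers (52.7% of all genes), with a median log2 difference of 0.22 and a highest of 0.96, for Cenpf. S phase members leaned the other way, with 11 of 14 lower (47.3% of all genes) and a median of −0.25. Mcm2 to Mcm6, subunits of the replicative helicase, differed by −0.46, −0.59, −0.61, −0.60 and −0.67, while Mcm7 differed by −0.09. The median over all genes with FPKM over 0.3 in either group was 0.01.

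In Gcn2-/- livers given ASNase the mitosis members were lower than in Gcn2-/- livers given PBS. Of the 22, 21 were lower (48.4% of all genes), the median log2 difference was −0.96 and Aurka alone was higher, by 0.16. A difference below −1 was found for 10 of 22 mitosis members and 1 of 14 S phase members, against 6.64% of all genes. No member was called, whether of the 7 over 3 FPKM (2.13% of all genes lower and 1.56% higher) or of all 40 at any level (1.2% lower and 1.13% higher). The S phase median was 0.19, with 9 of 14 higher (51.6% of all genes).

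Atf4-/- livers given ASNase had lower mitosis members as well, from an already lower start. Of the 22 mitosis members, 18 were lower than in Atf4-/- PBS livers (48.3% of all genes), with a median of −0.83, and 9 were below −1 (10.9% of all genes). Of the 14 S phase members, 10 were higher (51.7% of all genes), with a median of 0.18. They comprised the 9 origin licensing members, higher by 0.06 to 1.55, and 1 of 5 DNA synthesis members, whose median was −0.30. Among the 7 members over 3 FPKM, Ccnd1 fell and no other was called (4.63% of all genes lower, 2.74% higher). At any level Ccnd2 also fell, making 2 of 40 (2.68% lower, 1.6% higher). With 1 FPKM added in place of 0.1 the Ccnd2 difference was −0.95, under the limit of 1.5.

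**Figure D2:**
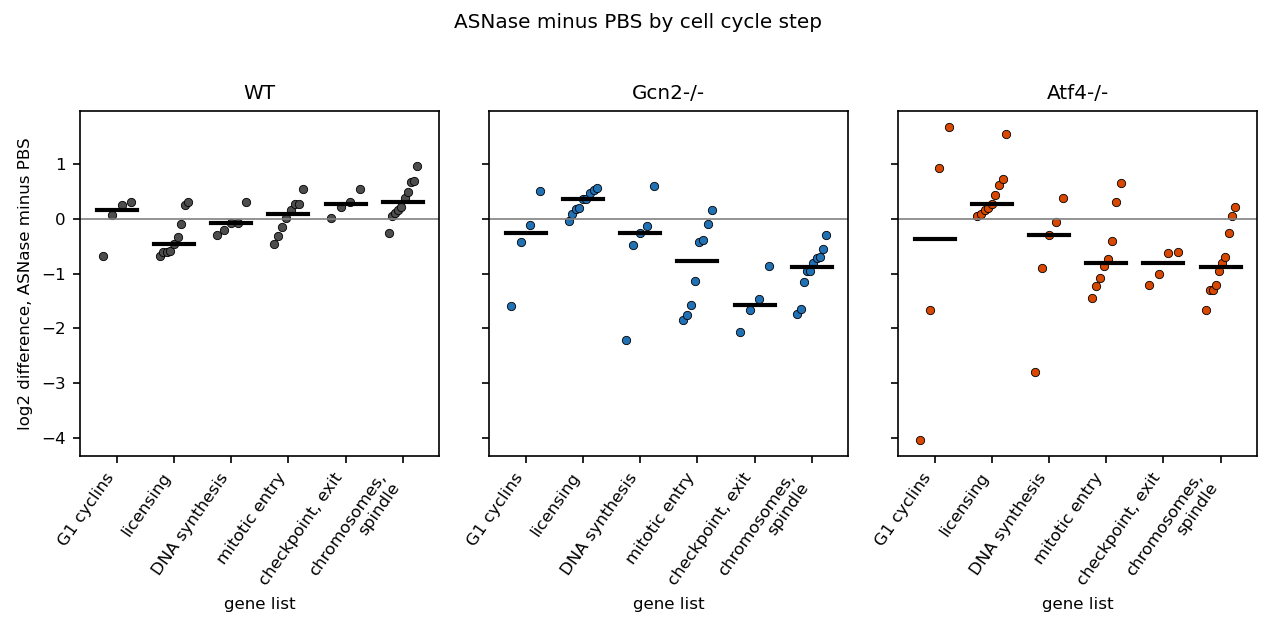
Each point is a member, its height the log2 difference of FPKM + 0.1 between ASNase and PBS livers of 1 strain, sorted within each gene list; the bar is the list's median. The 3 mitosis lists have their medians near or above 0 in WT and between −1.57 and −0.77 in both knockouts, while the licensing median is −0.46 in WT, 0.36 in Gcn2-/- and 0.26 in Atf4-/-.

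Without ASNase most mitosis members were lower in both knockouts than in WT livers, in Atf4-/- livers by about 1 on the log2 scale and in Gcn2-/- livers by less. In Atf4-/- PBS livers 21 of 22 mitosis members were lower than in WT PBS livers (48.6% of all genes), with a median of −0.99, and 11 were below −1 (3.25% of all genes). In Gcn2-/- PBS livers 20 of 22 were lower (48.2% of all genes), with a median of −0.29, and 1 was below −1 (3.51%), Cenpf at −1.14. S phase members leaned the same way by less, 11 of 14 being lower in Atf4-/- PBS livers (median −0.40) and 8 of 14 in Gcn2-/- PBS livers (median −0.15). Both comparisons use the same WT PBS group. Atf4-/- and Gcn2-/- PBS livers, set side by side, differed by a median of −0.80 over the mitosis members, 18 of 22 being lower in Atf4-/- livers (48.9% of all genes). Not 1 member was called in these comparisons at any level, where the called share of all genes was 0.217% higher and 0.584% lower for Gcn2-/- against WT, 0.217% and 0.614% for Atf4-/- against WT, and 0.348% and 0.254% for Atf4-/- against Gcn2-/-. The same was found for the 7 or 8 members over 3 FPKM, where those shares were 0.392% and 0.65%, 0.354% and 0.763%, and 0.544% and 0.433%.

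Under ASNase the medians of the mitosis members lay further below WT livers in both knockouts than with PBS, and S phase medians did not. For no single mitosis member was the response told apart from that of WT. At any level 3.31% (Gcn2-/-) and 4.4% (Atf4-/-) of all genes were told apart. The median over the mitosis members was −1.49 for Gcn2-/- and −1.89 for Atf4-/- against the same WT ASNase group, and 18 of 22 were below −1 in each, against 9.2% and 13.6% of all genes. S phase medians were 0.14 and −0.12. At any level 2 of 40 members were called lower in Gcn2-/- livers, Ccnd2 and Mki67 (1.91% of all genes lower, 1.17% higher), and 5 of 40 in Atf4-/- livers, Ccnd1, Ccnd2, Rrm2, Ccnb2 and Mki67 (3.48% lower, 1.47% higher). With the limit of 3 FPKM the calls were 0 of 8 (2.59% lower, 1.83% higher) and 2 of 9, Ccnd1 and Rrm2 (5.66% lower, 2.59% higher). Between Atf4-/- and Gcn2-/- ASNase livers Ccnd1 alone was called, 1 of 7 over 3 FPKM (2.29% of all genes lower, 0.898% higher) and 1 of 40 at any level (1.39% lower, 0.667% higher).

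Ccnd1 (ENSMUSG00000070348, chr7:144929931-144939925, minus strand) encodes cyclin D1, the cyclin through which growth signals bring hepatocytes out of rest. With PBS its FPKM was 24.7 (WT), 25.7 (Gcn2-/-) and 20.1 (Atf4-/-), and with ASNase 15.4, 8.47 and 1.13. The Atf4-/- ASNase group was the lowest, its upper bound of 2.02 lying below the lower bound of each other group (3.06 in Gcn2-/- ASNase livers). Ccnd1 was 17.8-fold lower after ASNase in Atf4-/- livers, a log2 difference of −4.04 with an error of 1.89. The corresponding difference was −0.67 in WT livers and −1.59 (error 1.44) in Gcn2-/- livers. In both, the intervals overlapped, and the latter difference passes if it has only to exceed the combined error. The response of Atf4-/- livers exceeded that of WT by −3.37 (error 2.51) and that of Gcn2-/- livers by −2.45 (error 2.38), both beyond the combined error, as was so for 6.56% and 3.65% of all genes tested. Of the exon bases of Ccnd1, 23.4% are shared with LTO1 on the opposite strand, and the library does not keep strand. The locus quantified for Ccnd1 spans 24770 bases rather than the 9995 of the annotated gene. LTO1 read between 5.77 FPKM (Atf4-/- ASNase) and 9.67 FPKM (Gcn2-/- PBS), the groups that were also lowest and highest for Ccnd1, and the part of shared reads was not tested.

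Ccnd2 (cyclin D2, chr6:127125162-127152193) had FPKM of 2.35, 2.47, 1.09, 0.787, 2.03 and 0.571. It was low in both Gcn2-/- groups and in the Atf4-/- ASNase group. The difference after ASNase in Atf4-/- livers was −1.67 (error 1.08), 3.55-fold. Its excess over the WT response, −1.73 (error 1.44), was beyond the combined error, but the gene lay under 3 FPKM throughout. The E-type cyclins, partners of CDK2 at the entry to S phase, differed after ASNase in Atf4-/- livers by 1.68 (Ccne1) and 0.93 (Ccne2). Ccne1 ranged from 1.05 to 3.58 FPKM and Ccne2 from 0.893 to 1.80, both highest in Atf4-/- ASNase livers, with intervals that overlapped in every comparison.

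The licensing factors load the MCM helicase on origins. Mcm2, Mcm3, Mcm4, Mcm5 and Mcm6 lay between 0.482 FPKM (Mcm5, Atf4-/- PBS) and 2.69 FPKM (Mcm6, WT PBS), and the highest group of each exceeded the lowest by 1.70-fold (Mcm3) to 2.47-fold (Mcm5). Gmnn, which encodes the licensing inhibitor geminin, ranged from 6.85 to 12.4 FPKM, and Cdc6, a loading factor, from 0.0606 to 0.109 FPKM. Cdt1, the other loading factor, ranged from 1.17 to 1.73 FPKM. Its locus in the table spans 4435365 bases rather than the 5540 of the annotated gene, and its intervals reach from 0 to over 20 FPKM in every group. Mcm7 was 18.6 FPKM in Atf4-/- ASNase livers and 4.85 to 7.0 in the other groups. Its lower bound was 0 in every group, and 12.6% of its exon bases are shared with other genes, Cops6 and Ap4m1 among them.

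Pcna, the sliding clamp of DNA polymerases, had FPKM of 15.8, 15.1, 16.8, 15.3, 16.1 and 21.0 in the same order of groups. The highest exceeded the lowest by 1.39-fold, and all intervals overlapped. Rrm1, the large subunit of ribonucleotide reductase, varied by 1.28-fold (2.23 to 2.85 FPKM). Rrm2, the small subunit, whose abundance limits the making of deoxynucleotides, varied more: 3.19, 3.97, 1.70, 2.65, 1.07 and 0.525 FPKM. It was lowest in both Atf4-/- groups and was called between Atf4-/- and WT livers under ASNase, 7.57-fold lower, a log2 difference of −2.70 (error 1.85). Between PBS and ASNase it was not called in any strain. Tyms, thymidylate synthase, ranged from 5.87 to 10.6 FPKM.

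**Figure D3:**
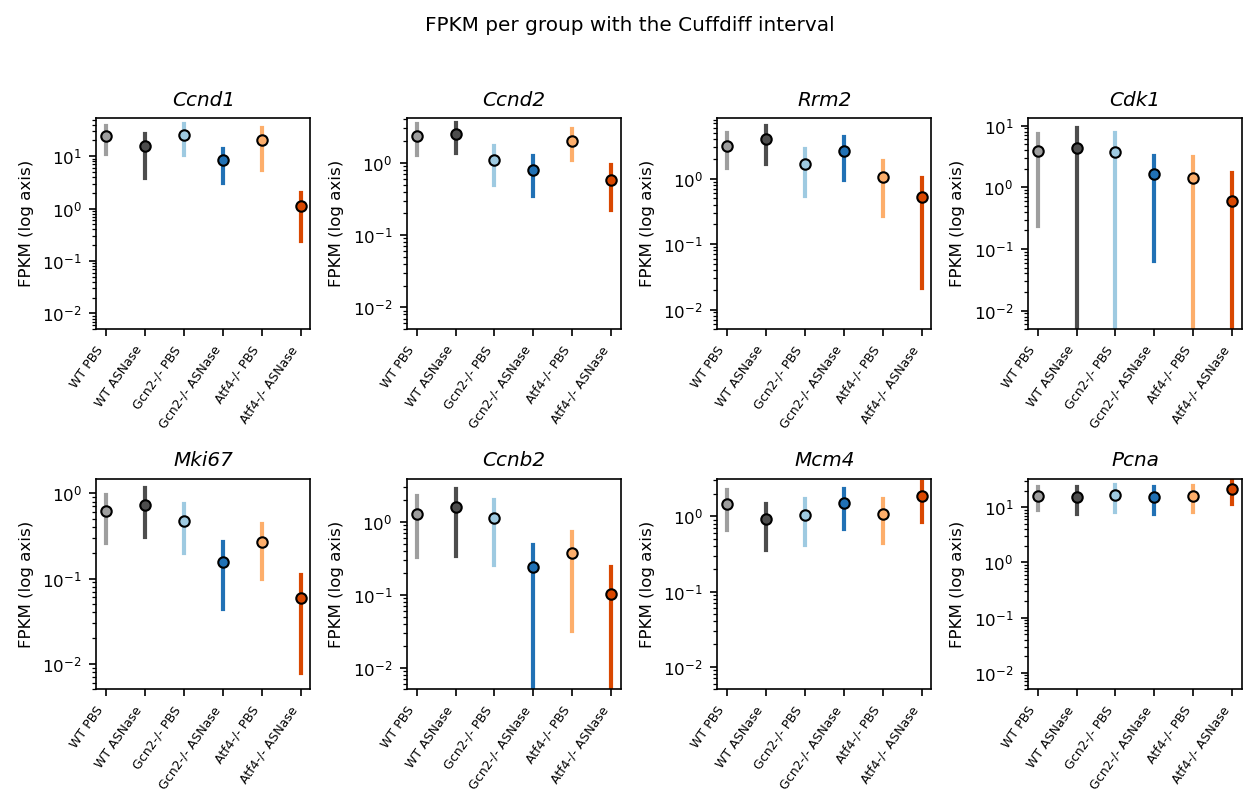
FPKM on a log axis for 8 members, with a point for each group's estimate and a bar for its interval; bars that reach 0 run to the lower edge at 0.005. Ccnd1 in Atf4-/- ASNase livers (1.13) lies below the bars of the other 5 groups, and Mki67 in that group (0.0589) below those of WT livers, while the bars of Mcm4 and of Pcna overlap across all groups.

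Mki67 (chr7:135689784-135716361) encodes Ki-67, the antigen used to count cycling cells. PBS livers had 0.614 (WT), 0.470 (Gcn2-/-) and 0.269 FPKM (Atf4-/-), and ASNase livers 0.731, 0.156 and 0.0589. The difference after ASNase was −1.16 in Gcn2-/-, −1.22 in Atf4-/- and 0.22 in WT livers, and was called in none of them. The response differed from that of WT by −1.37 (error 1.51) in Gcn2-/- and by −1.43 (error 1.42) in Atf4-/- livers, both under the limit of 1.5. For no mitosis member was the response told apart between strains at any level. Of all genes, 3.31% (Gcn2-/- against WT), 4.4% (Atf4-/- against WT) and 2.63% (Atf4-/- against Gcn2-/-) were told apart. Against WT ASNase livers Mki67 was 4.69-fold lower in Gcn2-/- livers (log2 difference −1.70, error 1.05) and 12.4-fold lower in Atf4-/- livers (−2.39, error 0.94). No exon base of Mki67 is shared with another gene.

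Among genes of entry into mitosis, Ccnb2, cyclin B2, a partner of CDK1, had FPKM of 1.28, 1.58, 1.12, 0.240, 0.376 and 0.102, the same order of groups as Mki67. It was 15.4-fold lower in Atf4-/- than in WT livers under ASNase, a log2 difference of −3.05 (error 1.63). Cdk1 had 3.80, 4.27, 3.74, 1.65, 1.39 and 0.607 FPKM, and was the highest of the mitosis members in the WT and Gcn2-/- groups. Its difference after ASNase was −1.13 in Gcn2-/- and −1.08 in Atf4-/- livers, with overlapping intervals. Ccnb1 ranged from 0.0238 to 1.01, Aurkb from 0.0634 to 0.673 and Aurka from 0.607 to 1.57 FPKM, each lowest in Atf4-/- ASNase livers. Plk1, a mitotic kinase, was lowest in Atf4-/- PBS livers (0.0627, against 0.464 in WT ASNase), as was Ccna2, cyclin A2 (0.641, against 1.45 in WT PBS). Foxm1, the transcription factor of the mitotic wave, ranged from 0.164 to 0.415 FPKM.

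Genes of the spindle checkpoint and of exit from mitosis, Bub1, Bub1b, Cdc20 and Ube2c, summed to 3.79, 4.69, 3.16, 0.779, 1.16 and 0.492 FPKM. The differences after ASNase in Gcn2-/- livers were −1.67, −0.86, −2.06 and −1.47, and in Atf4-/- livers −1.20, −0.63, −0.60 and −1.0. In WT livers they were 0.31, 0.22, 0.54 and 0.01. These sums split the groups into a higher set, both WT groups and Gcn2-/- PBS, and a lower set of the remaining 3.

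Structural genes of chromosomes, spindle and cytokinesis followed in the main. Top2a had FPKM of 1.67, 1.38, 1.16, 0.622, 0.601 and 0.121. Birc5, survivin, a subunit of the chromosomal passenger complex, had 1.55, 2.23, 1.76, 0.492, 0.652 and 0.204. For both, the Gcn2-/- ASNase and the Atf4-/- groups were below the other 3 estimates, with intervals that overlapped. The motor gene Kif11 ranged from 0.0798 to 0.444, the spindle gene Tpx2 from 0.0681 to 0.598, and the kinetochore genes Cenpe and Cenpf from 0.0219 to 0.159 and from 0.00354 to 0.818 FPKM, all lowest in Atf4-/- ASNase and highest in WT ASNase livers. Nusap1 (0.135 to 0.658) was lowest in Gcn2-/- ASNase livers and Kif20a (0.154 to 0.730) in Atf4-/- PBS livers. Prc1, a cytokinesis gene, was the exception, with 0.983, 1.66, 0.904, 0.723, 2.12 and 2.19 FPKM and its highest values in Atf4-/- livers.

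Exons of 14 of the 40 members share bases with another annotated gene, and reads from the strands were not separated. Tk1, thymidine kinase of the salvage pathway, had FPKM of 28.9, 25.1, 31.9, 6.85, 28.1 and 3.94, the widest spread among the DNA synthesis members. The differences after ASNase were −2.20 (error 6.10) in Gcn2-/- and −2.80 (error 5.78) in Atf4-/- livers, and its lower bound was 0 in each group. Its neighbour Afmid, a kynurenine formamidase of hepatocytes that shares 83 exon bases with it, had 65.8, 65.0, 69.6, 14.5, 59.9 and 7.24, and the locus given for Tk1 in the table covers parts of both genes. Prc1 shares 911 bases with Rccd1, which read 12.5 FPKM in Atf4-/- ASNase livers and 1.67 to 2.92 in the other groups. Ube2c shares 592 bases with the muscle gene Tnnc2, which read 98.2, 132, 0.0315, 0.050, 7.26 and 11.6 FPKM. Ube2c itself read 1.64, 1.65, 1.40, 0.441, 0.367 and 0.133. Kif20a shares 29.3% of its exon bases with Cdc23 (5.24 to 5.92 FPKM), and Ccna2 12.5% with Exosc9 (5.58 to 13.2 FPKM). Ccne2 shares 17.4% with Ints8 (7.99 to 11.9 FPKM), and its locus as quantified spans 62908 bases rather than 13429. The part of reads from overlapping genes in these members was not tested. Leaving out the members that share exon bases, a choice made after seeing the data, kept 13 of the 22 mitosis members. Of these, 12 were lower after ASNase in Gcn2-/- livers (median −1.16), 13 in Atf4-/- livers (−1.08) and 2 in WT livers (0.22).

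**Figure D4:**
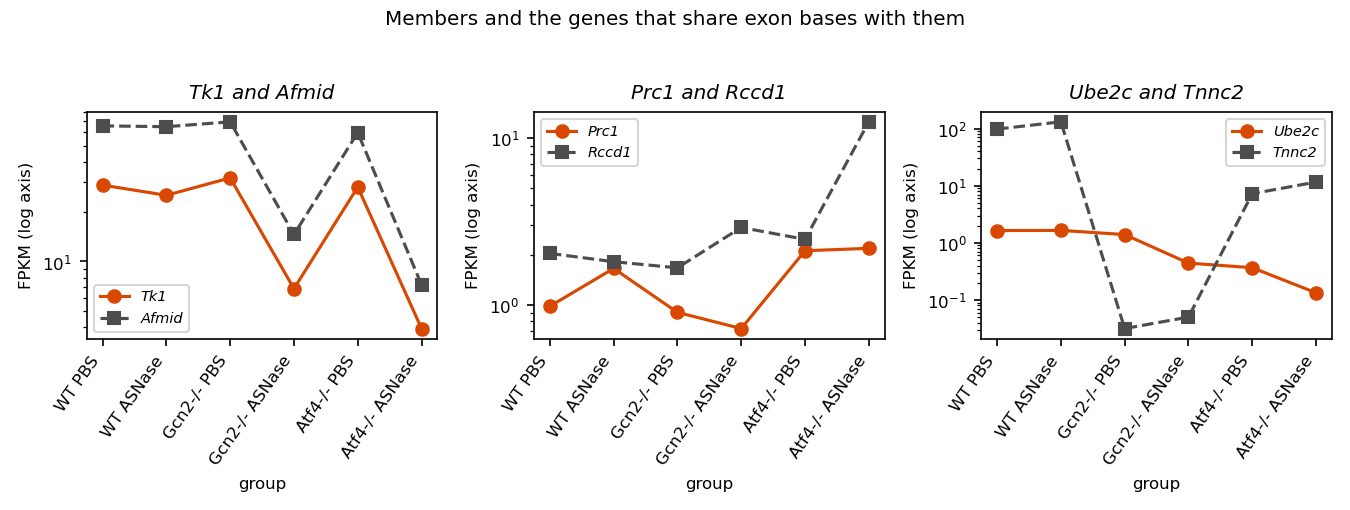
FPKM on a log axis in the 6 groups for 3 members (circles) and a gene that shares exon bases with each (squares). Tk1 and Afmid have their lowest values, 3.94 and 7.24, in Atf4-/- ASNase livers, Ube2c has its lowest there (0.133) and Tnnc2 in Gcn2-/- PBS livers (0.0315), and Rccd1 reaches 12.5 where Prc1 reads 2.19.

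Among genes of the same pathways that are not members, lists drawn up for the same steps were compared. The median over 40 other mitosis genes was −0.05 after ASNase in WT, −0.85 in Gcn2-/- and −0.43 in Atf4-/- livers, and −0.68 in Atf4-/- PBS against WT PBS livers. Over 37 other replication genes the corresponding medians were −0.10, 0.04, 0.17 and −0.20, with 1 called gene left out of this list and not reported here. In WT livers both lists leaned the same way after ASNase, with 23 of 40 and 23 of 37 genes lower (47.3% of all genes), whereas among the members 4 of 22 mitosis and 11 of 14 S phase genes were lower. No mitosis gene of this list was called between PBS and ASNase, with or without the limit of 3 FPKM. Without that limit 0.585% (WT), 1.13% (Gcn2-/-) and 1.6% (Atf4-/-) of all genes were called higher, and 0.0805%, 1.2% and 2.68% lower. Under ASNase, Atf4-/- livers had lower Spc24 and Cenpa than WT livers (2 called of the 10 over 3 FPKM in either group, against 5.66% of all genes), genes of the kinetochore and of the centromeric histone. Spc24 differed by −2.40 (error 1.37) and Cenpa by −2.43 (error 1.88).

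Mcm10, which encodes a replication initiation factor, fell in both knockouts. Its FPKM was 43.4, 57.4, 68.0, 8.58, 49.1 and 4.73 in the usual order, with a difference after ASNase of −2.97 (error 1.16) in Gcn2-/- and −3.35 (error 1.33) in Atf4-/- livers. In these comparisons 2.13% and 4.63% of all genes tested were called lower. No exon base of Mcm10 is shared with another annotated gene. Its level was above that of Mcm2 to Mcm6, which lay between 0.482 and 2.69 FPKM, and the reason was not tested. The medians over the other replication genes in the same comparisons were 0.04 and 0.17.

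The CDK inhibitor gene Cdkn1a, which encodes p21, rose in both knockouts. It read 2.13 (WT), 1.08 (Gcn2-/-) and 0.928 FPKM (Atf4-/-) with PBS, and 4.30, 42.6 and 45.2 with ASNase. The differences were 5.17 (error 1.52) and 5.46 (error 1.39), against 0.98 in WT livers, where it was not called. After ASNase 1.56% (Gcn2-/-) and 2.74% (Atf4-/-) of all genes tested were called higher. None of the other 6 CDK inhibitors listed was called in any comparison, Cdkn1b for example ranging from 6.36 to 10.9 FPKM. In no group were more than 3 of the 7 over 3 FPKM. A gene under that limit in both groups compared could not be called. Myc, a transcription factor that promotes growth and entry into the cycle, rose in Atf4-/- livers only among the comparisons of ASNase with PBS, from 1.75 to 13.8 FPKM (2.91, error 1.34), and the Atf4-/- response exceeded that of Gcn2-/- livers by 2.54 (error 1.92). Its excess over the WT response, 2.32 (error 2.45), was within the error. A link between Cdkn1a and the mitosis members was not tested.

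**Figure D5:**
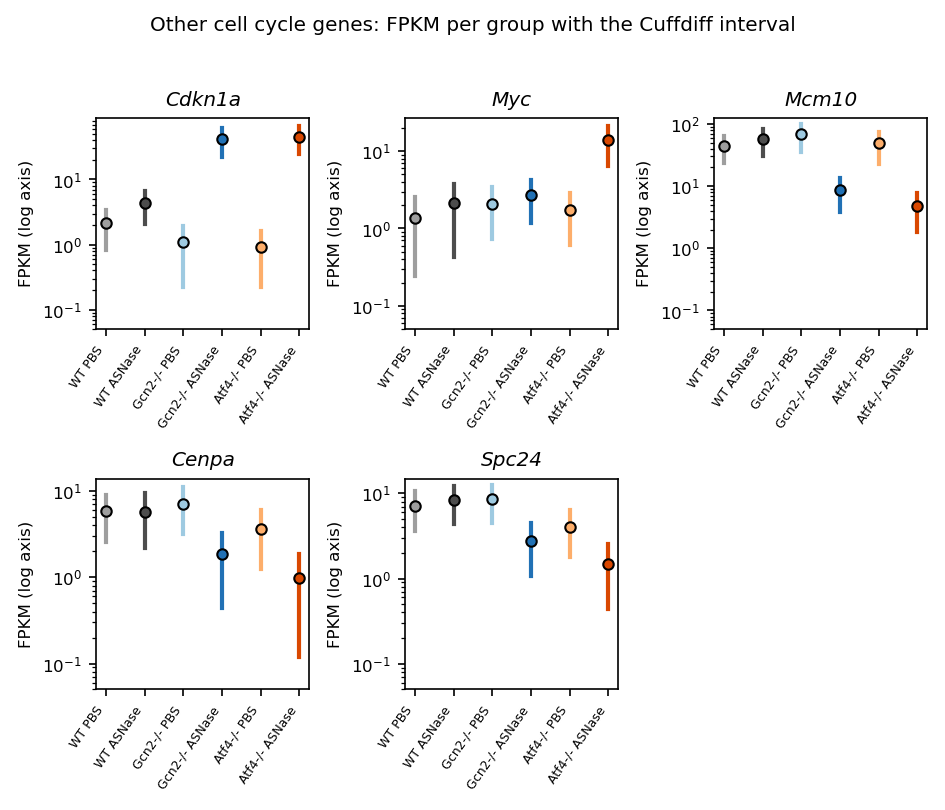
FPKM on a log axis, with the interval, for 5 cell cycle genes that are not members. Cdkn1a is 42.6 and 45.2 in the ASNase-treated knockouts and at most 4.30 elsewhere, Myc is 13.8 in Atf4-/- ASNase livers alone, and Mcm10, Cenpa and Spc24 are lowest in Atf4-/- ASNase livers.

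Markers of lymphocytes and erythroid cells were lowest in the ASNase-treated knockouts, as the sum of the mitosis members was. The 6 B cell markers summed to 16.4, 5.85, 9.54, 1.19, 10.3 and 1.04 FPKM, the 6 T cell markers to 3.85, 1.18, 2.19, 1.04, 3.22 and 0.867, and the 8 erythroid markers to 150, 86.9, 92.2, 25.2, 121 and 13.7. All 6 B cell markers were lower after ASNase in each of the 3 strains, as were all 6 T cell markers. WT ASNase livers had lower B and T cell sums than WT PBS livers and the highest sum of mitosis members. Atf4-/- PBS livers had lower B cell (10.3 against 16.4), T cell (3.22 against 3.85) and erythroid sums (121 against 150) than WT PBS livers, and a mitosis sum of 10.2 against 21.2. The single markers went both ways in this comparison. Lower were 4 of 6 B cell (median −0.42), 3 of 6 T cell (median 0.001) and 5 of 8 erythroid markers (median −0.06). Gcn2-/- PBS livers had sums lower still (B cell 9.54, T cell 2.19, erythroid 92.2), with a mitosis sum of 17.9 against 21.2 in WT PBS livers. Lower there than in WT PBS livers were 5 of 6 B cell (median −0.69), 4 of 6 T cell (−0.39) and 7 of 8 erythroid markers (−0.46). No B or T cell marker was listed at 0 in any group. Of the 9 neutrophil and myeloid precursor markers, 7 were lower after ASNase in Gcn2-/- (median −1.04) and 7 in Atf4-/- livers (median −0.57). Their sums were 8.29, 5.83, 13.9, 27.9, 29.7 and 17.2, of which Prtn3 made up 0.504, 0.247, 2.36, 26.3, 14.1 and 10.9. Ly6g was listed at 0 in 5 of the 6 groups and Mpo in both ASNase-treated knockouts. The 8 Kupffer and macrophage markers summed to 244, 137, 163, 223, 281 and 173. After ASNase all 8 were lower in WT livers (median −0.73) and 7 in Atf4-/- livers (median −1.04, the other higher by 2.85). In Gcn2-/- livers 3 were lower and 5 higher, from −2.08 to 3.80. The part of these cells in the levels of the members was not tested.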

How the data were processed

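Liver RNA of 18 mice was sequenced by the authors from polyadenylated, unstranded libraries, aligned to mm10 with TopHat and quantified with Cuffdiff, which pooled the 3 libraries of each group. The deposited table holds 1 FPKM per gene and group with its bounds and status. It gives no counts, so the depth behind each gene's value is unknown (the study gives read totals per library, which were not used here), and no p-value, interval of a mean or count model was possible. For 45 genes 1 or more groups lacked an estimate.

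From these values the differences of log2(FPKM + 0.1) were computed for 9 comparisons with Python 3.11.15, pandas 2.3.3 and numpy 2.4.6, and drawn with matplotlib 3.10.9. A difference was called as the report states; the limits of 3 FPKM and 1.5 follow the study's methods. A difference between strains in the response to ASNase had to exceed 1.5 and the combined width of 4 intervals. The rule for calling a difference was tested on simulated data, with changes set only in genes over 3 FPKM. The rule for responses between strains was not tested in this way. Members were named in full when called in any comparison at any level, and other cell cycle genes when called, except 1 replication gene that is not reported here and was left out of its list. The members, the lists and the tests were chosen with earlier results of these data known. Exon overlaps came from GENCODE on GRCm38 and promoter windows from RefSeq (GRCm38.p6). Alternatives varied the pseudocount, the FPKM limit, the fold limit, the scaling and the use of the intervals.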

Additional observations from a re-analysis of the deposited data

Results flagged for a closer look

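The response of Ccnd1 to ASNase differed between strains beyond the combined width of the 4 intervals concerned. It was more negative in Atf4-/- than in WT livers by −3.37 (log2, error 2.51), and more negative in Atf4-/- than in Gcn2-/- livers by −2.45 (error 2.38). With 1 pooled value per group the difference was not tested over mice, and 23.4% of the exon bases of Ccnd1 are shared with LTO1. The locus quantified for Ccnd1 also reaches past the annotated gene.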

How the results depend on the processing

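No paired analysis was possible because the table holds 1 pooled value per group, and for the same reason no library could be left out. The FPKM limit, the fold limit and the intervals do not enter the median log2 difference of the 40 members. A pseudocount cannot turn the sign of any gene's difference. Under the remaining alternatives, rescaling and leaving out the members that share exon bases, this median kept its direction in all 9 comparisons. Its size depended on the pseudocount: between Atf4-/- and WT livers under ASNase it was −1.40, −0.42 with 1 FPKM and −1.97 with 0.01 FPKM, and between Gcn2-/- and WT livers −1.0, −0.32 and −1.16. Counts of members called changed in 4 comparisons under other call rules. For Atf4-/- ASNase against PBS the count was 1 (699 of 9485 genes tested), 2 with a limit of 1 FPKM (775 of 11835), 2 with none (797 of 18626) and 4, 2 higher and 2 lower, without the condition on intervals (1160 of 9485). For Atf4-/- against WT under ASNase it was 2 (790 of 9577), and 4 (898 of 12031), 5 (935 of 18874) and 5, 1 of them higher (1276 of 9577), under those settings. For Gcn2-/- against WT under ASNase it was 0 (416 of 9423), and 1 (514 of 11895), 2 (558 of 18136) and 1 (723 of 9423). For Gcn2-/- ASNase against PBS it was 0 of 7 members (340 of 9218), 1 with the combined interval (453 of 9218) and 2 without the condition (607 of 9218). Without the 14 members that share exon bases, a choice made after seeing the data, the counts were 0 for Atf4-/- ASNase against PBS, 1 for Atf4-/- against WT and 0 for Atf4-/- against Gcn2-/- under ASNase, and the medians of Atf4-/- and Gcn2-/- against WT under ASNase were −1.01 and −0.36; fewer members entered. Rescaling by median ratios (factors 0.978 to 1.03) moved no call.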
